A study of Mus musculus with 12 samples.

Results

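The genes described are Zeb1 and 5 of its corepressors outside the NuRD complex: Ctbp1, Ctbp2, Rcor1, Kdm1a and Smarca4. They were taken by exact gene name from the raw count table, and the 6 genes were found among 12208. No measured value entered the matching of names, but the genes were chosen with earlier results of these data known. All 6 were among the 12027 genes that passed the filter on low counts. RNA came from 393P, a mouse lung cancer cell line labelled epithelial and non-metastatic, in 4 untreated lines grown alike: Zeb1 mimetic, Zeb1 deficient, Zeb1 WT (wild type) and a GFP vector control. The series title concerns acetylation of ZEB1, and deficient and mimetic are read here as forms of the protein that lack or imitate that mark, not as a knockout. There were 3 libraries per line, labelled as biological replicates, although the series' design text speaks of 2, and the sources used here do not settle this. Each Zeb1 form is 1 line, so the form and the line cannot be told apart, and p-values measure only the spread between libraries of a line, which may be technical. The lines keep whatever resident Zeb1 the parent cells have, and which promoter drives the introduced gene was not stated in the labels.

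The zinc-finger protein ZEB1 binds E-box sequences in DNA and represses epithelial genes such as E-cadherin during the epithelial-mesenchymal transition. It does not remove chromatin marks itself but recruits corepressors. The CtBP proteins bind short motifs in ZEB1 and bridge it to histone deacetylases, histone methyltransferases and the CoREST complex, in which RCOR1 is the scaffold that holds the demethylase LSD1 (Kdm1a) next to HDAC1 or HDAC2. BRG1 (Smarca4), the ATPase of the SWI/SNF chromatin remodeller, has been reported to bind ZEB1 separately from CtBP and to take part in repression of E-cadherin.

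The promoters of Ctbp1, Smarca4, Rcor1 and Rcor2 are shown because the first pair moved in all 3 Zeb1 lines against vector and the second pair moved in opposite directions in WT. Each is the RefSeq window from 250 bases before to 50 after the annotated start in GRCm38.p6, read along the gene's own strand. Capitals mark the ZEB-type core CACCT, or AGGTG on the other strand.
Ctbp1 (chr5:33274955-33275254, minus strand): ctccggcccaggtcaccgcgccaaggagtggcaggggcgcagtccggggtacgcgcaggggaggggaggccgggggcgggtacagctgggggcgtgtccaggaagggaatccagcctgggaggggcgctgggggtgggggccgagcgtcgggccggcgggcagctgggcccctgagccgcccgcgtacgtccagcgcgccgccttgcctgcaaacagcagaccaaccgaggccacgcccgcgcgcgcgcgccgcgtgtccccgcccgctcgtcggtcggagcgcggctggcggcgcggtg
Smarca4 (chr9:21615919-21616218, plus strand): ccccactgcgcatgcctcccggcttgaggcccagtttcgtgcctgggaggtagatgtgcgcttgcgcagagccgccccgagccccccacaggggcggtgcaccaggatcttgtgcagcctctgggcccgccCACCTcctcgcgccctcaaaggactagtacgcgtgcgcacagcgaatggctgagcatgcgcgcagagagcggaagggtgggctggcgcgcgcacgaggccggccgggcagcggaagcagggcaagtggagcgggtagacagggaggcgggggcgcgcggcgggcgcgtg
Rcor1 (chr12:111039117-111039416, plus strand): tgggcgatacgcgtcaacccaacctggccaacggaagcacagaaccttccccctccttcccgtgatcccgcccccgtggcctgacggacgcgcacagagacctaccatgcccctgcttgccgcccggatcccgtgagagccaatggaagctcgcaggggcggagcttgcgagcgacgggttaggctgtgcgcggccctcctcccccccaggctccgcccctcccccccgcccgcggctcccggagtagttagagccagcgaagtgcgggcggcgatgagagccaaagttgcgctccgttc
Rcor2 (chr19:7267144-7267443, plus strand): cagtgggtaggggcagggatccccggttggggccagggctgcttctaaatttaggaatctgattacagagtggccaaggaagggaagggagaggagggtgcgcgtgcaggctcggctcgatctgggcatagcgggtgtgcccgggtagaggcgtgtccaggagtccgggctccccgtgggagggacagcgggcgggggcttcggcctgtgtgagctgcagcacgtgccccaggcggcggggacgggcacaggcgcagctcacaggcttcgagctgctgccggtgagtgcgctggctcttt
The 6-letter E-box CACCTG, or CAGGTG on the other strand, contains that core, and 20.2% of the 32851 promoter windows of this length held it. The core alone was in 51.9% of them. Zeb1 itself was left out of this search, because windows on its chromosome were not read. Windows were read for the other 10 of the 11 members and paralogs, and the 6-letter E-box was in none (0) of them. The core was in the windows of Smarca4 and Kdm1b, each with 1 match, in the first of the Ctbp2 windows with 2, and in Zeb2 windows. A match is a description of letters and not a binding site, and the windows of Ctbp1, Rcor1 and Rcor2 held 0 cores.

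Library totals ran from 24.4 to 39 M counts and scaling factors for RNA composition (TMM) from 0.97 in a vector library to 1.03 in the mimetic libraries. Replicates differed by more than sampling noise, and deficient replicate 3 and vector replicate 3 stood farthest from the others of their lines, so member results that change without them are given below. The epithelial label was checked with 8 markers, of which 6 were analysed. Their summed level was 5880 to 6030 CPM (counts scaled to the size of each library) in mimetic, 8300 to 8440 in deficient, 4490 to 4640 in WT and 9570 to 11000 in vector. Of 7 mesenchymal or fibroblast markers 4 were analysed (Vim, Pdgfra, Col1a1 and Col1a2), and they summed to 4730 to 4820 CPM in mimetic, 3870 to 4030 in deficient, 5660 to 6000 in WT and 5030 to 5760 in vector. None (0) of 5 lung epithelial markers was among the genes analysed. The 1 analysed of 5 immune markers, Cd68, stood at 3.75 to 4.07 CPM in mimetic, 4.58 to 6.38 in deficient, 2.12 to 3.03 in WT and 6.05 to 8.43 in vector. The 2 analysed of 4 endothelial markers, Pecam1 and Kdr, summed to 2.61 to 3.11 CPM in mimetic, 5.37 to 7.15 in deficient, 0.736 to 1.14 in WT and 0.29 to 1.01 in vector. All 4 marker groups with analysed genes thus moved with the lines, the last 2 at a low level, and their part in the members' results was not tested. In bulk RNA, fewer cells of a type and less RNA per cell cannot be told apart.

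Zeb1 (chr18:5591860-5775467, plus strand, GRCm38, as are all gene positions given) checked the labels first. It stood at 214, 234 and 236 CPM in the mimetic libraries, 485, 470 and 496 in deficient, 245, 250 and 236 in WT and 30.1, 34.4 and 29.3 in vector. Every Zeb1 library lay far above every vector library, and the deficient libraries lay above all others. Against vector, Zeb1 rose 7.31-fold in mimetic (log2 2.87, SE 0.058, adjusted p = 3.4e-19), 15.5-fold in deficient (3.95, adjusted p = 1.98e-21) and 7.81-fold in WT (2.97, adjusted p = 1.1e-19) by edgeR's quasi-likelihood test. Mimetic was 2.12-fold below deficient (log2 -1.08, 95% interval -1.19 to -0.98, adjusted p = 3.46e-12). Deficient was above WT by 0.99 on the log2 scale (adjusted p = 2.07e-12). Mimetic and WT were neighbours whose difference did not pass the test (log2 -0.10, 95% interval -0.20 to 0.01, adjusted p = 0.14). That difference passed when only those lines were fitted (-0.10, adjusted p = 0.0384). The order was therefore deficient, then WT and mimetic, then vector. The counts hold 994 to 16082 tags per library, which cover the resident gene together with any introduced transcript that has a countable Zeb1 3' end. They measure RNA and not protein, and no mutation was read.

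**Figure D1:**
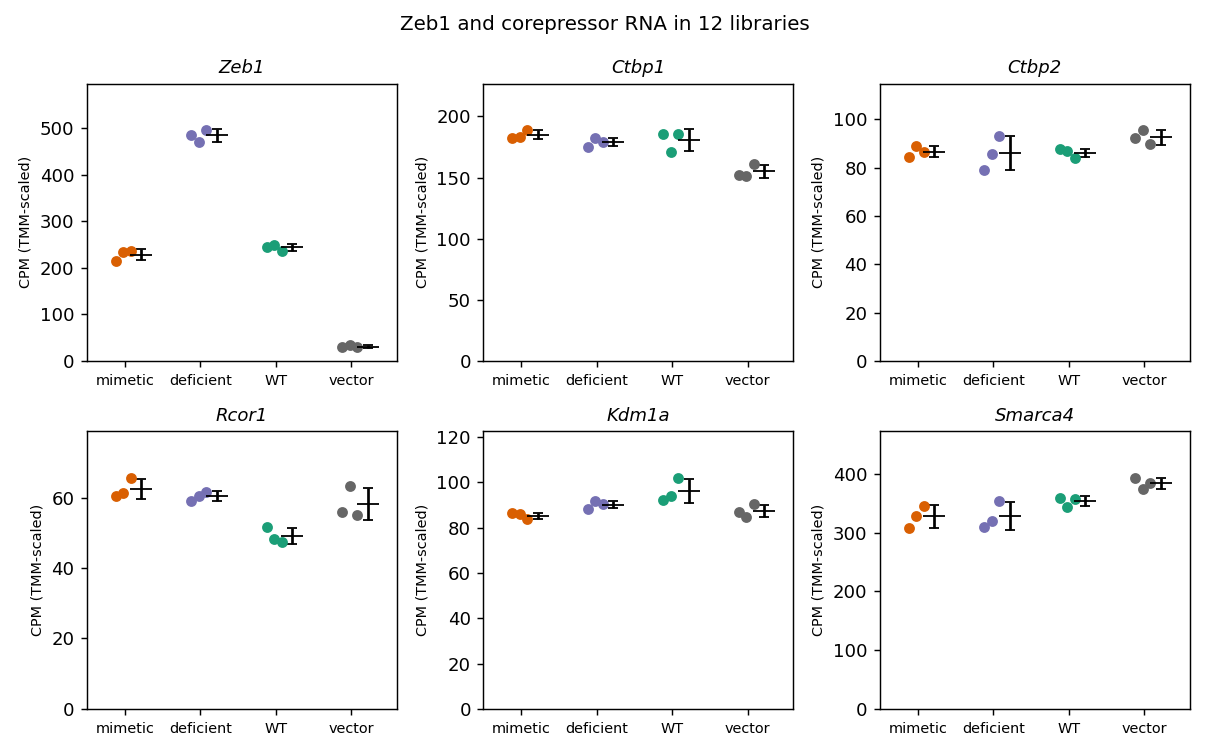
Level of Zeb1 and 5 corepressors in each library, in TMM-scaled CPM (y axis, from 0, own scale in each panel), for mimetic, deficient, WT and vector from left to right. Points are libraries and bars are line means with SD, n = 3; Zeb1 spans 29.3 to 496 CPM, while each corepressor stays within a narrow band.

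Beside this range in Zeb1, the 5 corepressors differed little between lines. Over the 3 comparisons with vector their log2 fold changes lay between -0.24 (Rcor1 in WT) and 0.25 (Ctbp1 in mimetic), and no 95% interval reached beyond -0.37 or 0.35. Their median absolute log2 fold change was 0.10 in mimetic, 0.11 in deficient and 0.14 in WT, against 0.28, 0.27 and 0.32 over all tested genes. With Zeb1 included, 3 of 6 genes were called between mimetic and vector, 2 higher and 1 lower, where 59.5% of all tested genes were called, 28.6% higher and 30.9% lower. Between deficient and vector the count was also 3 of 6, 2 higher and 1 lower, against 58.2% of all genes, 28.4% higher and 29.8% lower. Between WT and vector it was 5 of 6, 3 higher and 2 lower, against 64.6%, 31% higher and 33.6% lower. Shares of 3 in 6 and 5 in 6 on so few genes are not set apart from that background. These 3 comparisons share the vector libraries.

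Among the Zeb1 lines the count was 1 of 6 between mimetic and deficient, namely Zeb1 itself, against 27.4% of all genes. It was 2 of 6 between mimetic and WT, Rcor1 higher and Kdm1a lower, against 44.9% (23.1% higher, 21.8% lower). It was 2 of 6 between deficient and WT, Zeb1 and Rcor1, both higher, against 53.8% (27.5% higher). Between mimetic and deficient, where Zeb1 RNA differed 2.12-fold, no corepressor was called (0 of 5) and their log2 fold changes ran from -0.08 to 0.05, with intervals inside -0.18 and 0.18. On so few genes, 0 in 5 and the counts of 1 and 2 in 6 are not set apart from the shares of all genes.

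**Figure D2:**
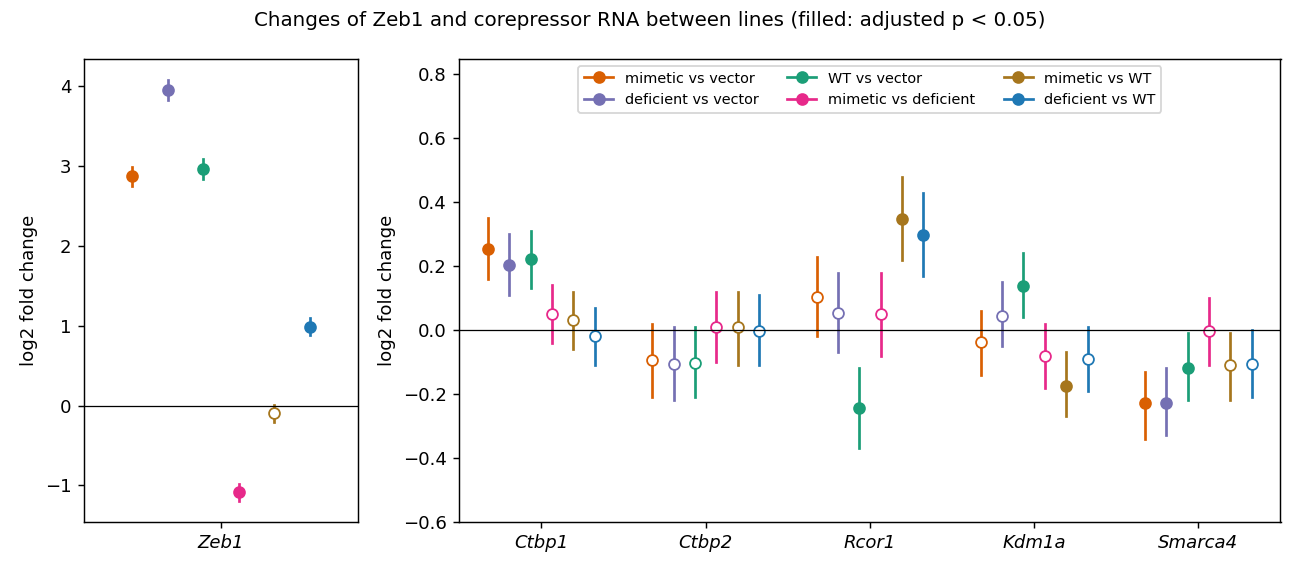
Log2 fold change of each gene (y axis) with its 95% interval from the edgeR fit, in the 3 comparisons with vector and the 3 among Zeb1 lines. Filled points passed an adjusted p of 0.05, and Zeb1 has its own scale; it stands apart at 2.87 to 3.95 against vector while the corepressors stay between -0.24 and 0.35.

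The CtBP proteins are related corepressors that bind NAD(H) and work as dimers, and they differed from each other here. Ctbp1 (chr5:33247723-33274994, minus strand) stood at 182, 183 and 189 CPM in mimetic, 175, 182 and 179 in deficient, 186, 171 and 186 in WT and 152, 151 and 161 in vector. All 9 Zeb1-line libraries were above all 3 vector libraries, and the Zeb1 lines overlapped each other. Ctbp1 rose 1.19-fold in mimetic (log2 0.25, SE 0.044, adjusted p = 5.15e-05), by a log2 of 0.20 in deficient (adjusted p = 0.000532) and 1.17-fold in WT (log2 0.22, adjusted p = 0.000177). These calls held in all 20 alternative settings tried for each comparison. No pair of Zeb1 lines differed by the test (log2 0.05, 0.03 and -0.02, smallest adjusted p = 0.439), and the intervals lay within -0.11 and 0.14.

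Ctbp2 (chr7:132987563-133124354, minus strand) was lower than Ctbp1 in every library. It stood at 84.5, 89 and 86.3 CPM in mimetic, 79.2, 85.7 and 93 in deficient, 87.6, 86.7 and 84.1 in WT and 92.2, 95.6 and 89.6 in vector. Mimetic and WT lay below vector without overlap, by a few CPM, while deficient overlapped it. Its log2 fold changes against vector were -0.10 in mimetic, -0.11 in deficient and -0.10 in WT (adjusted p = 0.137, 0.0999 and 0.101), none of them called. Without deficient replicate 3, the library at 93 CPM, the value for deficient was -0.165 (adjusted p = 0.0104). The annotation places Fgfr2 on the same strand over the 3' window of Ctbp2, so its counts are uncertain to that extent.

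Within a library, a ratio of counts does not depend on scaling. The ratio of Ctbp2 to Ctbp1 was 0.464, 0.485 and 0.456 in mimetic, 0.453, 0.471 and 0.52 in deficient, 0.471, 0.508 and 0.451 in WT and 0.605, 0.632 and 0.555 in vector. Every Zeb1-line ratio lay below every vector ratio. The log2 difference from vector was -0.35 in mimetic, -0.31 in deficient and -0.33 in WT, each with an exact two-sided permutation p = 0.1, the smallest that 3 against 3 libraries allow, or 0.167 after Benjamini-Hochberg adjustment over 30 ratio tests. The ratio of Zeb1 to both CtBP genes together had a geometric mean of 0.84 in mimetic, 1.83 in deficient, 0.913 in WT and 0.126 in vector. Zeb1 tags therefore outnumbered CtBP tags only in the deficient line, in all 3 of its libraries (1.91, 1.76 and 1.83). Tags from different genes can be captured with different efficiency, so the ratio compares lines and is not a ratio of molecules.

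**Figure D3:**
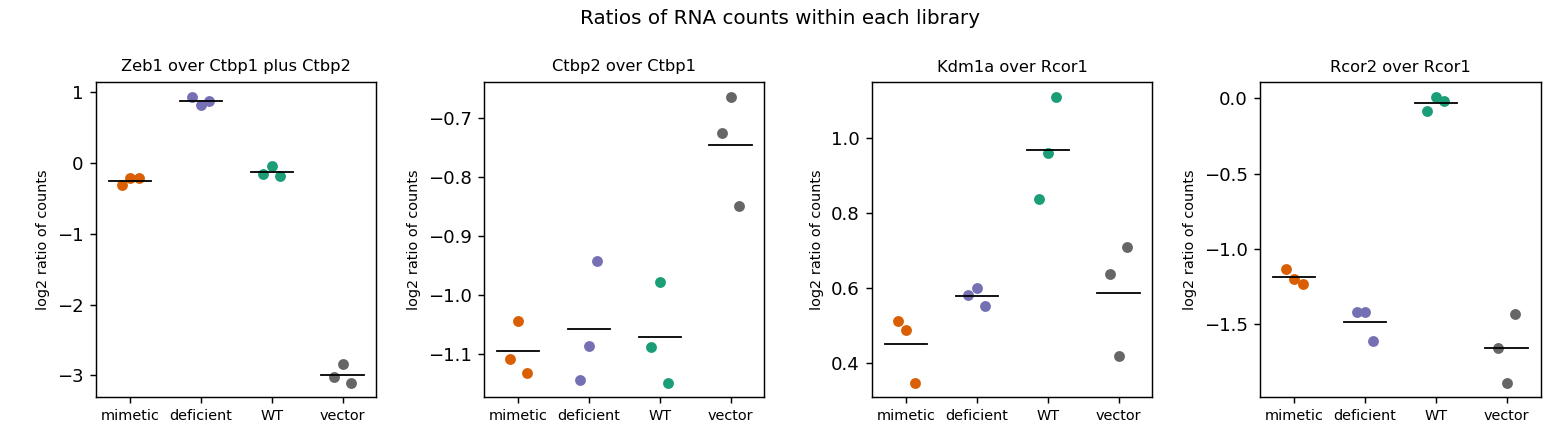
Log2 ratios of counts within each library (y axis) for pairs of genes, with mimetic, deficient, WT and vector from left to right. Points are libraries and lines are means, n = 3, and each panel has its own scale; the Ctbp2 to Ctbp1 ratio is lower in every Zeb1-line library than in vector, and the Kdm1a to Rcor1 and Rcor2 to Rcor1 ratios are highest in WT.

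Rcor1 encodes CoREST, the scaffold that joins LSD1 to the deacetylases, and WT was the line that stood apart. Rcor1 (chr12:111039351-111115901, plus strand) stood at 60.5, 61.2 and 65.7 CPM in mimetic, 59, 60.4 and 61.7 in deficient, 51.7, 48.3 and 47.3 in WT and 56, 63.4 and 55.2 in vector. The 3 WT libraries lay below all 9 others, which overlapped each other. Rcor1 fell 1.18-fold in WT against vector (log2 -0.24, SE 0.061, adjusted p = 0.00157), while mimetic and deficient stood 0.10 and 0.05 from vector (adjusted p = 0.157 and 0.468). It was 1.27-fold higher in mimetic than in WT (log2 0.35, adjusted p = 0.000119) and 1.23-fold higher in deficient than in WT (0.30, adjusted p = 0.000374), which are the tests of those differences. All 3 calls held in the 20 alternative settings. With scaling by library size alone the value for mimetic against vector was 0.18 and passed (adjusted p = 0.0174). It also passed without vector replicate 2, the library at 63.4 CPM (0.166, adjusted p = 0.0257).

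Kdm1a (chr4:136550540-136602723, minus strand) encodes LSD1, which removes methyl groups from histone H3 and depends on CoREST to act on nucleosomes. It stood at 86.2, 85.8 and 83.6 CPM in mimetic, 88.3, 91.6 and 90.4 in deficient, 92.3, 93.9 and 102 in WT and 86.9, 84.8 and 90.2 in vector. WT was the highest line and WT replicate 3 its highest library. Kdm1a rose 1.10-fold in WT against vector (log2 0.14, SE 0.048, adjusted p = 0.0166), a call lost without WT replicate 3 (0.10, adjusted p = 0.12) or vector replicate 2 (0.12, adjusted p = 0.0615). It was 1.13-fold lower in mimetic than in WT (log2 -0.17, adjusted p = 0.0061), a call lost with scaling by library size alone (-0.117, adjusted p = 0.0514). In mimetic and deficient it stood -0.04 and 0.05 from vector (adjusted p = 0.538 and 0.437). Luzp1 overlaps the 3' end of Kdm1a on the opposite strand, and whether counting used strand is not stated, so reads of these genes cannot be told apart. Luzp1 was 114 ± 1.9 CPM in mimetic, 131 ± 4.3 in deficient, 115 ± 1.1 in WT and 136 ± 9.6 in vector (SD, n = 3), an order that differs from that of Kdm1a.

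The ratio of Kdm1a to Rcor1 counts put both differences together. It was 1.43, 1.40 and 1.27 in mimetic, 1.5, 1.52 and 1.47 in deficient, 1.78, 1.94 and 2.16 in WT and 1.55, 1.34 and 1.63 in vector. All WT ratios were above all others. The log2 difference was -0.52 for mimetic against WT, -0.39 for deficient against WT and 0.38 for WT against vector, each with an exact permutation p = 0.1 (0.167 adjusted), the smallest this design allows.

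Smarca4 (chr9:21616169-21704230, plus strand), the BRG1 ATPase, was the most abundant corepressor by tags. It stood at 308, 329 and 346 CPM in mimetic, 310, 320 and 355 in deficient, 359, 344 and 358 in WT and 394, 375 and 384 in vector. The vector libraries lay above all 9 Zeb1-line libraries, and the Zeb1 lines overlapped each other. Smarca4 fell 1.17-fold in mimetic (log2 -0.23, SE 0.05, adjusted p = 0.000537) and 1.17-fold in deficient (-0.23, adjusted p = 0.000644), and both calls held in 20 of 20 alternative settings. In WT it fell 1.09-fold (-0.12, adjusted p = 0.0435), a call lost with RLE size factors (-0.107, adjusted p = 0.0646), with library size alone (-0.102, adjusted p = 0.0812), with DESeq2 (-0.107, adjusted p = 0.0665) and without any 1 of 7 libraries. Those were vector replicates 1 and 3, all WT replicates, deficient replicate 2 and mimetic replicate 2, with adjusted p from 0.0517 to 0.152. Between the Zeb1 lines no difference passed the test as fitted: log2 0.00 for mimetic against deficient (interval -0.11 to 0.10), -0.11 for mimetic against WT and -0.11 for deficient against WT (adjusted p = 0.0795 and 0.078). Without deficient replicate 3, the highest of its line at 355 CPM, deficient was called lower than WT (-0.168, adjusted p = 0.0051) and mimetic was too (-0.11, adjusted p = 0.0333). Deficient was also called lower than WT with RLE size factors (adjusted p = 0.0483), DESeq2 (0.0471), only those lines in the fit (0.0413) and the replicate block (0.048). Mimetic was also called lower than WT with only those lines in the fit (0.0143) and without mimetic replicate 3 (0.0287).

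Paralogs of the members were measured beside them, and several moved further than the members. Zeb2 (chr2:44983632-45117395, minus strand), the other ZEB factor, stood at 53.5 ± 0.93 CPM in mimetic, 58.8 ± 1.8 in deficient, 72.3 ± 1.9 in WT and 45.7 ± 4.5 in vector (SD, n = 3). It rose against vector in mimetic (log2 0.23, adjusted p = 0.00373), deficient (0.36, adjusted p = 4.16e-05) and WT (0.66, adjusted p = 8.95e-09). Its order did not follow that of Zeb1 RNA: deficient, with the most Zeb1, was 0.30 below WT for Zeb2 (adjusted p = 0.000342), and mimetic was 0.43 below WT (adjusted p = 9.52e-06).

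The CoREST family changed its make-up most in WT. Rcor2 (chr19:7267325-7275225, plus strand), a second CoREST scaffold, stood at 27.4 ± 0.7 CPM in mimetic, 21.6 ± 1.2 in deficient, 48.1 ± 1.1 in WT and 18.4 ± 1.8 in vector. It rose against vector 2.61-fold in WT (adjusted p = 1.19e-12) and 1.48-fold in mimetic (adjusted p = 1.67e-06). In deficient it rose 1.17-fold (adjusted p = 0.0138), a call lost without vector replicate 1 (adjusted p = 0.0573), vector replicate 2 (adjusted p = 0.0736) or deficient replicate 2 (adjusted p = 0.0622), and when only those lines were fitted (adjusted p = 0.0511). All 3 pairs of Zeb1 lines differed, with mimetic 1.27-fold above deficient, and with mimetic 1.76-fold and deficient 2.23-fold below WT. Rcor3 (chr1:192098546-192138062, minus strand), a family member reported to oppose CoREST activity, stood at 17.6 ± 0.2 CPM in mimetic, 19.6 ± 1.8 in deficient, 13.9 ± 1 in WT and 25.2 ± 1 in vector. It fell in all 3 Zeb1 lines against vector (log2 -0.52, -0.36 and -0.86), and mimetic and deficient were above WT by 0.34 and 0.49, all called.

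Summed over Rcor1, Rcor2 and Rcor3, the family was at 107 ± 3.5 CPM in mimetic, 102 ± 2.1 in deficient, 111 ± 2.2 in WT and 102 ± 4.2 in vector. The WT sums (109 to 114 CPM) lay above all sums in vector (99.2 to 107) and deficient (99.3 to 104), and overlapped those in mimetic (105 to 112). Rcor2 gave 25.5% ± 0.54 of those tags in mimetic, 21.3% ± 1.5 in deficient, 43.3% ± 0.52 in WT and 18.1% ± 2.2 in vector. Rcor3 gave 16.4% ± 0.36 in mimetic, 19.3% ± 1.4 in deficient, 12.5% ± 1.2 in WT and 24.8% ± 0.82 in vector, so its share was lower in all 3 Zeb1 lines. Rcor1 gave 58.1% ± 0.83 in mimetic, 59.4% ± 0.17 in deficient, 44.2% ± 1.2 in WT and 57.1% ± 2.1 in vector. In WT the tags of Rcor1 and Rcor2 were thus close to equal, with a ratio of Rcor2 to Rcor1 of 0.945, 1.01 and 0.989. That ratio was 0.456, 0.435 and 0.426 in mimetic, 0.373, 0.374 and 0.327 in deficient and 0.317, 0.27 and 0.37 in vector. The sums, shares and this ratio were added after the values had been seen, and the exact permutation p for mimetic or deficient against WT was 0.1, the smallest possible.

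**Figure D4:**
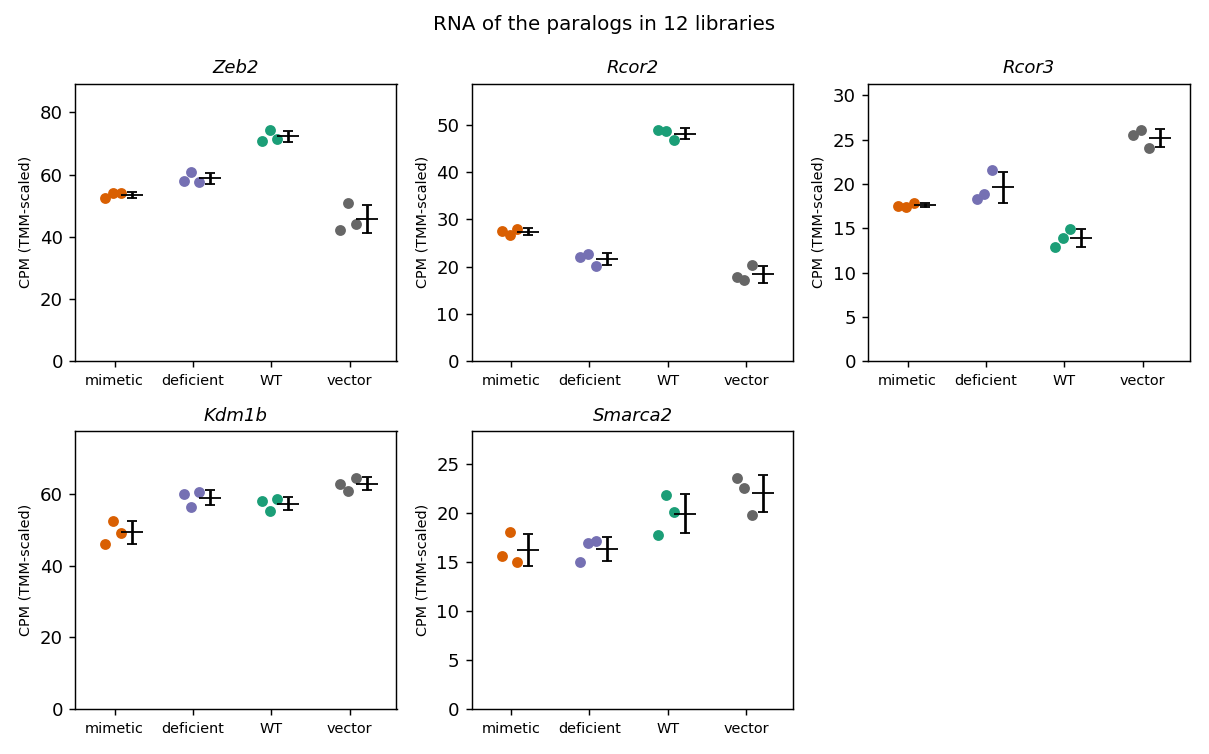
Level of the 5 paralogs of the members in each library, in TMM-scaled CPM (y axis, from 0), for mimetic, deficient, WT and vector from left to right. Points are libraries and bars are line means with SD, n = 3; Rcor2 and Zeb2 are highest in WT (48.1 and 72.3 CPM), where Rcor3 is lowest (13.9 CPM).

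Kdm1b (chr13:47043499-47085279, plus strand), the LSD2 demethylase, which does not need CoREST, stood at 49.3 ± 3.3 CPM in mimetic, 59 ± 2.1 in deficient, 57.3 ± 1.8 in WT and 62.9 ± 1.8 in vector. It fell in mimetic against vector (log2 -0.35, adjusted p = 2.5e-05) and was lower in mimetic than in deficient (-0.26, adjusted p = 0.00207) and WT (-0.22, adjusted p = 0.00457). For deficient against vector the value was -0.09 (adjusted p = 0.169). For WT against vector it was -0.13 (adjusted p = 0.0445), a call lost with RLE size factors, library size alone, DESeq2 or without any 1 of 7 libraries. Dek overlaps its 3' end on the opposite strand, so its counts are uncertain too; Dek was 253 ± 5.2 CPM in mimetic, 227 ± 9.5 in deficient, 276 ± 2.1 in WT and 232 ± 12 in vector.

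Smarca2 (chr19:26605050-26778322, plus strand), the BRM ATPase that can stand in for BRG1, stood at 16.2 ± 1.6 CPM in mimetic, 16.3 ± 1.2 in deficient, 19.9 ± 2 in WT and 22 ± 1.9 in vector. It fell against vector in mimetic (log2 -0.44, adjusted p = 0.000625) and deficient (-0.43, adjusted p = 0.000747), and the value in WT was -0.14 (adjusted p = 0.199). Mimetic and deficient were also called below WT (-0.30, adjusted p = 0.0184, and -0.29, adjusted p = 0.018). Both calls were lost without WT replicate 2 (adjusted p = 0.104 and 0.0964). That for mimetic was also lost without mimetic replicate 1 or 3 (adjusted p = 0.0637 and 0.0826) and with library size alone (adjusted p = 0.0541), and that for deficient without deficient replicate 1 (adjusted p = 0.0847). The ratio of Smarca2 to Smarca4 had a geometric mean of 0.0493 in mimetic, 0.0497 in deficient, 0.0559 in WT and 0.0571 in vector, with no pair of lines below an exact permutation p of 0.2. An antisense gene is annotated over the 3' window of Smarca2, as for Rcor3, so without a stated strand these counts are uncertain.

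The wider complexes were read from lists of their subunits. The list of the CtBP, CoREST and LSD1 complex held 23 genes, among them Ctbp1, Ctbp2, Rcor1, Rcor2, Rcor3 and Kdm1a. Of these 23 genes, 6 rose and 10 fell in mimetic against vector. In deficient 4 rose and 10 fell, and in WT 7 rose and 11 fell. Of all tested genes, 28.6% rose and 30.9% fell in mimetic, 28.4% and 29.8% in deficient, and 31% and 33.6% in WT. The medians were -0.09, -0.11 and -0.10, against 0.00, 0.00 and -0.01 for all tested genes. Zfp217, a zinc-finger partner of CtBP and CoREST, was 65.7 ± 1.5 CPM in mimetic, 73.4 ± 0.49 in deficient and 73.1 ± 1.5 in WT, against 99.7 ± 2.3 in vector. It fell 1.52-fold in mimetic, 1.36-fold in deficient and 1.36-fold in WT (adjusted p = 5.06e-10, 4.68e-08 and 2.78e-08). Zmym3, a subunit of LSD1 complexes, fell 1.46-fold in mimetic, 1.51-fold in deficient and 1.29-fold in WT (adjusted p = 2.88e-07, 7.53e-08 and 3.03e-05). Sfmbt1, a Polycomb-related protein that binds LSD1, rose to 13.4 ± 1.9 CPM in mimetic, 10.7 ± 0.39 in deficient and 17.8 ± 1.2 in WT, against 6.74 ± 0.75 in vector (adjusted p = 2.19e-07, 4.21e-05 and 7.9e-10). Zmym2, a relative of Zmym3, rose 1.18-fold in mimetic, 1.23-fold in deficient and 1.13-fold in WT (adjusted p = 0.000311, 3.7e-05 and 0.00384).

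Between the Zeb1 lines, 3 of the 23 were higher and 1 lower in mimetic than in deficient, where 12.6% and 14.9% of all genes were. The deacetylase Hdac1 was 46.4 ± 1.1 CPM in mimetic, 39.1 ± 3.5 in deficient and 55.7 ± 0.83 in WT, against 47.1 ± 2.3 in vector. Against vector it fell in deficient (log2 -0.27, adjusted p = 0.00131) and rose in WT (0.24, adjusted p = 0.00218). In mimetic it stood -0.02 from vector (adjusted p = 0.803). Mimetic was 1.19-fold above deficient for Hdac1 (adjusted p = 0.00711), a call lost without deficient replicate 2 (adjusted p = 0.0563), and deficient was 1.43-fold below WT (adjusted p = 1.22e-06), and mimetic was below WT too (log2 -0.26, adjusted p = 0.0022). Zfp217 was 1.12-fold lower in mimetic than in deficient (adjusted p = 0.0134), a call lost without mimetic replicate 1 or 2 (adjusted p = 0.0525 and 0.05). Against WT, 5 were higher and 10 lower in mimetic, and 7 were higher and 6 lower in deficient, where 23.1% and 21.8% of all genes were higher and lower in mimetic and 27.5% and 26.3% in deficient. The methyltransferase G9a (Ehmt2) was 255 ± 9.6 CPM in mimetic and 253 ± 17 in deficient, 1.17-fold and 1.18-fold below its 298 ± 13 in WT (adjusted p = 0.0017 and 0.000836). In vector it was 290 ± 16 CPM, from which WT did not differ by the test (log2 0.04, adjusted p = 0.535). Against vector, Ehmt2 fell in deficient (-0.195, adjusted p = 0.00323) and in mimetic (-0.184, adjusted p = 0.00489). The call in mimetic was lost with library size alone (0.0707). Sfmbt1 was 1.32-fold lower in mimetic and 1.66-fold lower in deficient than in WT (adjusted p = 0.00425 and 8.71e-06).

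Of 26 tested genes of the BRG1 SWI/SNF complex, 6 rose and 10 fell in mimetic against vector, 6 rose and 13 fell in deficient, and 5 rose and 9 fell in WT. Of all tested genes, 28.6% rose and 30.9% fell in mimetic, 28.4% and 29.8% in deficient, and 31% and 33.6% in WT. The core scaffold subunit Smarcc2 (BAF170) was 95.6 ± 0.44 CPM in mimetic, 107 ± 12 in deficient and 109 ± 1.1 in WT, against 142 ± 8 in vector. It fell 1.48-fold, 1.33-fold and 1.31-fold (adjusted p = 7.65e-08, 6.74e-06 and 1.02e-05). Smarcd3 (BAF60c), a subunit known from heart and muscle, was low but rose to 10.7 ± 1.2 CPM in mimetic, 9.42 ± 1.3 in deficient and 9.21 ± 0.77 in WT, against 5.37 ± 0.26 in vector (adjusted p = 7.73e-07, 1.2e-05 and 1.56e-05). Its relative Smarcd2 fell 1.25-fold in mimetic, 1.24-fold in deficient and 1.13-fold in WT (adjusted p = 1.58e-05, 2.67e-05 and 0.00408). Brd9, which marks the non-canonical form of the complex, fell 1.27-fold in mimetic, 1.31-fold in deficient and 1.21-fold in WT (adjusted p = 3.33e-05, 6.56e-06 and 0.000306).

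In mimetic against deficient 5 of the 26 SWI/SNF genes were higher and 1 lower, against 12.6% and 14.9% of all genes, and the total of 6 was 3 without mimetic replicate 2. Phf10, an accessory subunit of the PBAF form, was 111 ± 5.4 CPM in mimetic, 156 ± 12 in deficient and 108 ± 2.9 in WT, against 127 ± 2.2 in vector. Against vector it rose in deficient (log2 0.30, adjusted p = 5.75e-05) and fell in WT (-0.23, adjusted p = 0.000712). It also fell in mimetic (-0.20, adjusted p = 0.00325), a call lost with library size alone (0.051). Phf10 was 1.41-fold lower in mimetic than in deficient (adjusted p = 4.5e-07) and 1.45-fold higher in deficient than in WT (adjusted p = 4.98e-08). Bcl7c and the scaffold Smarcc1 were 1.24-fold and 1.15-fold higher in mimetic than in deficient (adjusted p = 0.00627 and 0.00961), and both were lower in deficient than in WT (adjusted p = 0.00272 and 0.0032). Bcl7a, a low accessory subunit, was 13.6 ± 0.87 CPM in mimetic, 11.4 ± 1 in deficient, 6.31 ± 1.3 in WT and 11.7 ± 0.83 in vector. It fell 1.87-fold in WT against vector (adjusted p = 3.15e-06), and mimetic and deficient were 2.16-fold and 1.81-fold above WT (adjusted p = 5.94e-07 and 1.05e-05). In all, 3 were higher and 4 lower in mimetic than in WT, and 3 higher and 8 lower in deficient than in WT, against 23.1% and 21.8% of all genes in mimetic and 27.5% and 26.3% in deficient. The total for mimetic against WT, 7, was 4 with library size alone, and that for deficient against WT, 11, was 7 without deficient replicate 1. Pbrm1 and Brd7, which belong to PBAF, were 1.16-fold higher and 1.18-fold lower in mimetic than in WT (adjusted p = 0.00248 and 0.000199), and Brd7 was 1.10-fold lower in deficient too (adjusted p = 0.0101). Actl6a was 1.11-fold higher in mimetic and 1.16-fold higher in deficient than in WT (adjusted p = 0.0112 and 7e-04), the call in mimetic being lost without WT replicate 1 (0.0614) or mimetic replicate 2 (0.0504).

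**Figure D5:**
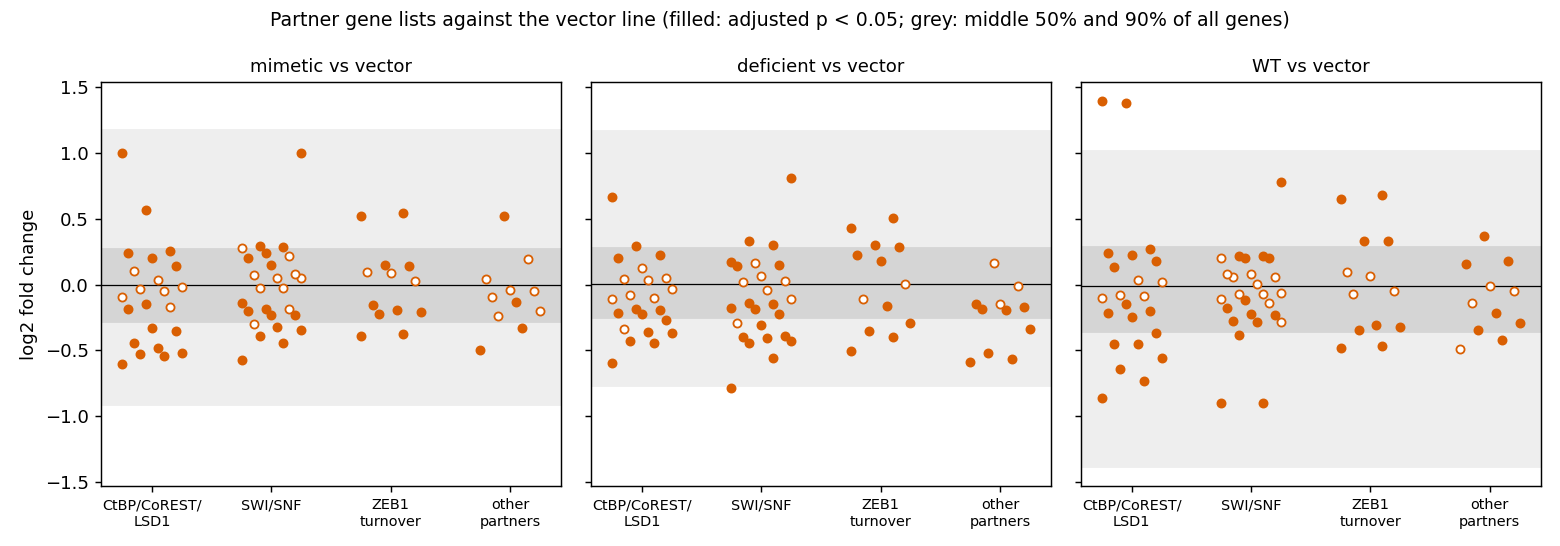
Log2 fold change (y axis) of each tested gene of the CtBP, CoREST and LSD1 list, the SWI/SNF list, the ZEB1 turnover list and the other ZEB1 partners, in mimetic, deficient and WT against vector, 1 panel each. Filled points passed an adjusted p of 0.05 and the grey bands hold the middle 50% and 90% of all tested genes; most points lie close to 0, and the highest in WT are Sfmbt1 (1.40) and Rcor2 (1.38).

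Across the 12 libraries, 8666 genes with a mean of at least 10 CPM were ranked by the likeness of their log2 levels to each member. These correlations are descriptions, because the 12 points come from 4 lines and share scaling and depth. The genes most like Zeb1 were Steap1 (r = 0.991), Nfil3 (0.99), Slc16a3 (0.986), Flnc (0.98) and Enpp5 (0.98), and each was highest in deficient. Flnc, an actin crosslinker, averaged 292 CPM in mimetic, 383 in deficient, 238 in WT and 15.2 in vector. The genes most like Ctbp1 were Frmd8, Fis1 and Mrpl52 (0.968 each), Trip6 (0.965) and Hist1h4c (0.96), and those most like Smarca4 were Pelp1 (0.967), Mtcl1 and Tns2 (0.959 each), Ciz1 (0.952) and Ptrf (0.949). Rcor1 was followed most closely by Lgr6 (0.95), Xpo7 (0.943), Ptpn14 (0.942), Notch2 (0.936) and Pibf1 (0.932), each lowest in WT. Notch2, a Notch receptor, averaged 150 CPM in mimetic, 139 in deficient, 106 in WT and 143 in vector. Kdm1a had lower values, led by Tspyl2 (0.92), Fam219b (0.901), Efhd2 (0.893), Cfap43 (0.887) and Rnps1 (0.886). Ctbp2 had the weakest, led by Lrrk1 (0.891), Tgfb1 (0.875), Arhgap23 (0.858), Zmiz2 (0.857) and Arhgap21 (0.855).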

How the data were processed

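The 12 libraries were made from total RNA with a QuantSeq kit that reads transcript 3' ends and sequenced in pairs (Illumina HiSeq), as the labels' protocols say. The authors deposited raw counts per gene, 1 column per library, with no normalisation. STAR and mm10 are named in the submitters' processing notes. The STAR version, the annotation, how reads were counted and whether strand was used were not given in the sources used here. Every listed gene has at least 1 count in every library, so genes at 0 in any library are not analysed here. Positions are from GENCODE annotation of GRCm38, matched by gene ID for 12195 of 12208 genes, and promoters from RefSeq.

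Counts were fitted with edgeR 4.0.16 in R 4.3.3: filterByExpr left 12027 genes (181 removed), with TMM factors and a quasi-likelihood model over all 12 libraries, 1 coefficient per line. The 6 pairs of lines were tested two-sided, with Benjamini-Hochberg adjustment over all tested genes; a gene was called under 0.05, and "rose" and "fell" refer to calls. A standard error is the log2 fold change divided by the square root of F. Levels are CPM on TMM-scaled library sizes, and the likeness ranking used log2 CPM with a prior count of 2. Ratios used exact permutation tests. The test of mimetic against deficient was tried on simulated counts in which few genes were changed, in mimetic alone. Many more genes were called in these data, and the other comparisons were not simulated. Alternatives were RLE size factors, library size only, DESeq2 1.42.0, limma-voom (limma 3.58.1), no filter, at least 5 CPM in 3 libraries, only the 2 lines compared, a replicate block and leaving out each library. Named genes are all members and paralogs, up to 3 genes per list and comparison with the smallest adjusted p, and the 5 genes most like each member. Members and lists were chosen with earlier results of these data known.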

Additional observations from a re-analysis of the deposited data

How the results depend on the processing

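Over 20 alternatives per comparison, counts of genes called stayed within 1.5 times the reported ones, from 2576 to 3783 for mimetic against deficient and from 6925 to 7940 for WT against vector. The ratio differences had 7 alternatives each (leaving out each of the 6 libraries, and a ratio of mean CPM). The ratio of mean CPM moved none of them by more than the spread between replicates. Leaving out 1 of 3 libraries cannot move a line mean by more than that spread, so those alternatives could not have failed. Scaling by library size alone shifted medians by at most 0.074 on the log2 scale. It moved the share of calls that were higher to 59.1% (48% as reported) in mimetic against vector, 56.8% (45.8%) in mimetic against deficient and 63.9% (51.5%) in mimetic against WT.

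For Smarca4, RLE size factors and DESeq2 gave -0.107 for WT against vector, 0.001 for mimetic against deficient and -0.119 for deficient against WT, which passed under both (adjusted p = 0.0483 and 0.0471), and library size alone gave -0.102 and 0.025 for the first pair of these. Library size alone also gave 0.176 for Rcor1 and 0.038 for Kdm1a in mimetic against vector, -0.117 for Kdm1a in mimetic against WT, 0.008 for Ctbp1 and 0.025 for Ctbp2 in deficient against WT, and 0.017 for Smarca2 in mimetic against deficient. The filter at 5 CPM gave 0.005 for Ctbp1 and 0.022 for Ctbp2 in deficient against WT. Fitting only 2 lines gave calls of -0.096 for Zeb1 (adjusted p = 0.0384) and -0.111 for Smarca4 (0.0143) in mimetic against WT, and -0.114 for Smarca4 in deficient against WT (0.0413). The causes were not tested.

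The replicate block gave -0.109 (adjusted p = 0.048) for Smarca4 in deficient against WT and changed no other member's call. Same-numbered libraries correlated at -0.08 to 0.13 after line means were removed and others at -0.09 to 0.09. No pairing by number was seen, although with 3 libraries per line these values cannot exclude it.

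Leaving out each library in turn gave these ranges: Smarca4, -0.135 to -0.097 for WT against vector, -0.044 to 0.057 for mimetic against deficient, -0.154 to -0.069 for mimetic against WT and -0.168 to -0.069 for deficient against WT; Kdm1a, 0.096 to 0.171 for WT against vector and -0.134 to -0.059 for deficient against WT; Rcor1, 0.064 to 0.166 for mimetic against vector; Ctbp1, -0.016 to 0.046 for mimetic against WT; Ctbp2, -0.165 to -0.049 for deficient against vector, -0.046 to 0.070 for mimetic against deficient, -0.015 to 0.024 for mimetic against WT and -0.063 to 0.051 for deficient against WT; Smarca2, -0.094 to 0.040 for mimetic against deficient.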

Other observations

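Genes that act on ZEB1 protein stability were measured as RNA. Of 13 tested, 4 rose and 6 fell in mimetic against vector, 6 rose and 5 fell in deficient, and 4 rose and 5 fell in WT. Of all tested genes, 28.6% rose and 30.9% fell in mimetic, 28.4% and 29.8% in deficient, and 31% and 33.6% in WT. The deubiquitinase Usp7 was 195 ± 1.2 CPM in mimetic, 192 ± 12 in deficient and 203 ± 2.2 in WT, against 253 ± 3.6 in vector (adjusted p = 3.09e-07, 1.39e-07 and 1.96e-06, edgeR's quasi-likelihood test). Usp10, another deubiquitinase, fell 1.31-fold in mimetic, 1.23-fold in deficient and 1.27-fold in WT (adjusted p = 2.6e-07, 1.03e-05 and 1.16e-06). The ubiquitin ligase Siah1a rose to 24.4 ± 2 CPM in mimetic, 24.2 ± 2 in deficient and 27.3 ± 1.6 in WT, against 17 ± 0.73 in vector (adjusted p = 2.05e-05, 2.64e-05 and 4.29e-07). In WT the ligase subunit Fbxw7 fell 1.40-fold and the deubiquitinase Usp22 1.38-fold against vector (adjusted p = 2.02e-07 and 8.42e-08). Fbxw7 also fell in mimetic (1.11-fold, adjusted p = 0.0212), a call lost in 5 of 20 alternative settings, and was not called in deficient (log2 -0.11, adjusted p = 0.1). Usp22 also fell in mimetic (1.15-fold, adjusted p = 0.00142) and in deficient (1.12-fold, adjusted p = 0.00832), the call in deficient being lost without deficient replicate 1 (0.0624). Both were higher than WT in mimetic (log2 0.33 and 0.26, adjusted p = 7.91e-05 and 0.000321) and in deficient (log2 0.37 and 0.30, adjusted p = 1.06e-05 and 4.31e-05). The kinase Atm was 77.6 ± 3.3 CPM in mimetic, 62.4 ± 1.1 in deficient, 84.6 ± 0.32 in WT and 88.9 ± 14 in vector, and mimetic was 1.24-fold above deficient (adjusted p = 0.00422). Against vector, Atm fell 1.42-fold in deficient (adjusted p = 8.6e-06). Trim26 and Usp39 were 1.16-fold and 1.10-fold lower in mimetic than in deficient (adjusted p = 0.0221 and 0.037). The call for Trim26 was lost without deficient replicate 3 or mimetic replicate 2 or 3 (adjusted p = 0.11, 0.08 and 0.0715). That for Usp39 was lost without WT replicate 1 or 2, deficient replicate 1 or 2 or any mimetic replicate (adjusted p up to 0.149) and with library size alone (0.0936). Against vector, Usp39 rose 1.11-fold in mimetic, 1.22-fold in deficient and 1.26-fold in WT (adjusted p = 0.00854, 2.34e-05 and 2.85e-06), and mimetic was 1.13-fold below WT (adjusted p = 0.0035). Trim26 rose 1.23-fold in deficient against vector (adjusted p = 0.000514) and was not called in mimetic or WT (adjusted p = 0.244 and 0.213). Of the 13 genes, 1 was higher and 2 lower in mimetic than in deficient, 3 in all, or 1 without mimetic replicate 2 or 3, against 12.6% and 14.9% of all genes. In mimetic and in deficient alike, 3 were higher and 2 lower than in WT, against 23.1% and 21.8% of all genes in mimetic and 27.5% and 26.3% in deficient.

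Of 11 other ZEB1 partners, 1 rose and 3 fell in mimetic against vector, none (0) rose and 8 fell in deficient, and 3 rose and 4 fell in WT, beside the shares of all genes given above. The acetyltransferase Kat2b was 79.4 ± 4.9 CPM in mimetic, 88.4 ± 5.3 in deficient, 111 ± 2 in WT and 112 ± 2.7 in vector. It fell in mimetic and in deficient against vector (1.41-fold and 1.26-fold, adjusted p = 8.84e-08 and 1.34e-05), and both were below WT (adjusted p = 2.98e-07 and 2.34e-05). The deacetylase Sirt1 rose 1.43-fold in mimetic and 1.29-fold in WT against vector (adjusted p = 2.54e-05 and 0.000761) and stood 0.16 above vector on the log2 scale in deficient (adjusted p = 0.108), and mimetic was 1.28-fold above deficient (adjusted p = 0.00347). The maintenance methyltransferase Dnmt1 was 370 ± 8.7 CPM in mimetic, 341 ± 9.2 in deficient, 427 ± 10 in WT and 383 ± 7.9 in vector, with mimetic and deficient below WT (adjusted p = 0.00019 and 6.53e-07). Against vector, Dnmt1 fell in deficient and rose in WT (adjusted p = 0.000949 and 0.00143). The signal transducer Smad3 fell 1.26-fold in mimetic, 1.14-fold in deficient and 1.23-fold in WT against vector (adjusted p = 1.72e-06, 0.000939 and 5.7e-06). Smad4 fell 1.15-fold in deficient (adjusted p = 0.00064) and 1.10-fold in mimetic (0.0121), the call in mimetic being lost without mimetic replicate 2 (0.0505) and with library size alone (0.24). The acetyltransferase Crebbp was 54.9 ± 7.9 CPM in deficient and 60.8 ± 2.9 in WT, against 81.4 ± 17 in vector (log2 -0.57 and -0.42, adjusted p = 0.000561 and 0.00571), where the libraries overlapped in both comparisons. The coactivator Yap1 was 102 ± 2.2 CPM in mimetic, 98.4 ± 0.3 in deficient, 112 ± 2.3 in WT and 99.1 ± 6.2 in vector. Against vector, Yap1 rose in WT (log2 0.18, adjusted p = 0.00224) and was not called in mimetic or deficient (0.04 and -0.01, adjusted p = 0.499 and 0.876). Deficient was below WT for Yap1 (log2 -0.19, adjusted p = 0.00206), and so was mimetic (-0.14, adjusted p = 0.0197). The call in mimetic was lost without WT replicate 2 or mimetic replicate 1 and with library size alone.

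Between mimetic and deficient, 3 of these 11 were higher and 2 lower, 5 in all, or 2 without deficient replicate 1 or 2 and 3 without mimetic replicate 2 or 3, against 12.6% and 14.9% of all genes. Against WT, 1 was higher and 3 lower in mimetic (2 in all without WT replicate 2), and 1 was higher and 5 lower in deficient, where 23.1% and 21.8% of all genes were higher and lower in mimetic and 27.5% and 26.3% in deficient. The histone methyltransferase Setd1b was low, at 12.1 ± 1.3 CPM in mimetic, 7.07 ± 1.6 in deficient, 7.58 ± 0.72 in WT and 10.7 ± 4.8 in vector. Against vector, Setd1b was not called in mimetic (log2 0.19, adjusted p = 0.461) or WT (-0.49, adjusted p = 0.0607). It fell in deficient (-0.59, adjusted p = 0.0287), where the libraries overlapped. That call was lost in 7 of 20 alternative settings, among them leaving out vector replicate 2 (-0.22, adjusted p = 0.343). Its calls in mimetic against deficient (adjusted p = 0.0128) and WT (adjusted p = 0.0175) were each lost without single libraries, deficient replicate 1 or 2 in the first (0.0559 and 0.0546) and WT replicate 2 or 3 or mimetic replicate 2 or 3 in the second (up to 0.0642), and the second also with DESeq2 (0.0655). Smad3 was 153 ± 5.7 CPM in mimetic and 169 ± 2.5 in deficient (adjusted p = 0.0202), a call lost without deficient replicate 3 (0.0508), without mimetic replicate 2 (0.113) and with library size alone (0.0533).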
